A study of Mus musculus with 2 samples.

Results

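The genes described here are 42 genes for glycoproteins, proteoglycans and crosslinking enzymes of the extracellular matrix, measured by RNA-Seq during adipogenesis of mouse brown preadipocytes. They were chosen by name, with earlier results of these data known. All 42 had a value in both libraries, out of 23361 genes with values among the 27324 rows of the deposited table. Each value is an FPKM, a number of sequenced fragments scaled to the length of the transcript and to the depth of the library. The extracellular matrix is the network of secreted proteins and sugars that holds cells in place, binds growth factors and sets the stiffness around a cell. Fibronectin and elastic fibres form its scaffold together with collagens, small proteoglycans coat the collagen fibrils, and lysyl oxidases crosslink collagen and elastin. Matricellular proteins such as tenascins and thrombospondins mainly change how cells attach and signal. Preadipocytes are fibroblast-like cells that spread on such a matrix, whereas adipocytes round up and fill with lipid.

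D0 was the preadipocyte stage and D7 the adipocyte stage, and each stage was a single library. Per the labels, the cells came from interscapular brown adipose tissue of newborn C57BL/6 mice and were isolated in medium with 20% fetal bovine serum. They were plated 4 days before induction in medium with 10% serum, insulin (0.1 μM) and T3 (1 nM), so both stages had this hormone background up to day 0. From day 0, indomethacin (0.125 mM), dexamethasone (2 μg/ml) and IBMX (0.5 mM) were added for 2 days, followed by the same medium without these agents until D7. The labels call the cells primary cultures, while the methods of the paper describe immortalization with large T and other concentrations of insulin and dexamethasone, and pooling of animals is not stated. The FPKM values were scaled to about 21471074 fragments at D0 and 18265365 at D7, as worked out from single-exon genes. The paper gives numbers of mapped reads, which may be another unit than fragments, and these are larger and closer to each other. With only 1 library each, the stage and the library cannot be told apart, no p-value was computed, and fewer cells of a type cannot be told apart from less RNA per cell. Intervals in parentheses are exact 95% Clopper-Pearson intervals, which cover the counting of fragments and nothing else. At D7 all 10 adipocyte markers of a list were at least 2-fold higher, with a summed FPKM of 94.1 at D0, led by Lpl, against 19687 at D7, led by Fabp4.

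Most of the matrix genes that differed between the stages were lower at D7. A gene was counted as higher at a ratio of D7 to D0 of at least 2 and as lower at a ratio of at most 0.5. Of the 42 genes, 19 were lower and 7 were higher, while 16 lay between these limits. Among all 14986 genes above 0 in both libraries, 13.2% were lower and 18.5% were higher. The paper, at the same threshold, reports more genes down than up at D7, which is the opposite balance, and the source of this difference was not tested. The shares over all genes were not recomputed under other scalings. The median log2 ratio was -0.73 over the 42 genes and 0.02 over all of these genes. The interval of the ratio lay wholly below 0.5 for 17 of the 19 lower genes, with Lum and Mfap4 as the exceptions, and wholly above 2 for each of the 7 higher genes. The ratios ran from 0.0513 for Tnc to 17.2 for Eln, and 41 of the 42 intervals left out 1.

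**Figure D1:**
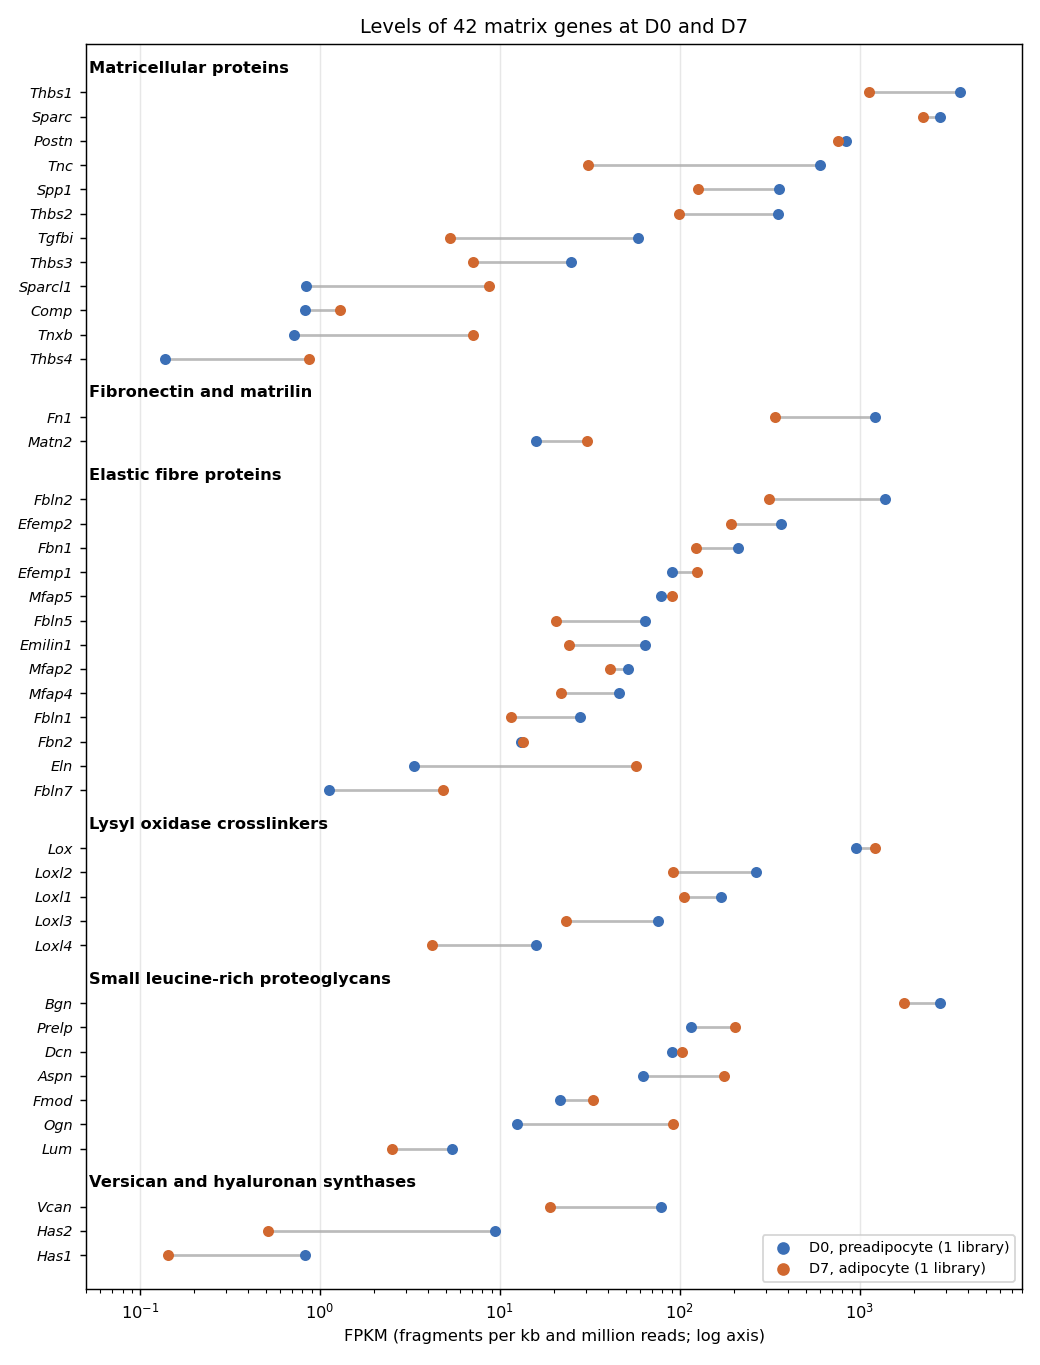
FPKM of each of the 42 matrix genes at D0 (blue) and D7 (orange) on a log axis, grouped by role and ordered by the level at D0 within a role. Tnc moved from 604 to 31.0, Has2 from 9.38 to 0.512 and Eln from 3.34 to 57.2, while Sparc and Postn kept within 2-fold.

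As a group these genes were strongly expressed at both stages. Their median FPKM was 64.0 at D0, where that of all genes above 0 was 5.68, and 36.9 at D7, where that of all genes was 5.85. FPKM reached 100 in 15 of the 42 genes at D0 and again in 15 at D7. At D0, 6 of them were among the 100 highest rows of the table (Thbs1, Sparc, Bgn, Fbln2, Fn1 and Lox). At D7, 4 of them were (Sparc, Bgn, Lox and Thbs1). Thbs1 was the 3rd highest row at D0 and the 42nd at D7, whereas Lox moved from place 93 to place 35. The 42 genes together held 3.31% of the summed FPKM at D0 and 1.84% at D7, a measure that needs no scaling between the libraries.

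Because strongly expressed genes were lower at D7 more often, the genes were also read beside others of like level. Of 810 genes with an FPKM of at least 100 at D0, 22.5% were lower and 8.89% were higher. Among the 15 matrix genes of this level, 7 were lower and 0 were higher. Of 5190 genes with an FPKM of 10 to 100 at D0, 10.9% were lower and 7.48% were higher. Among the 18 matrix genes of this level, 9 were lower and 2 (Ogn and Aspn) were higher. In both ranges, lower genes made up a larger share of the matrix genes than of all genes at that level. With an FPKM of at least 10 in at least 1 library, 16 of 34 matrix genes were lower and 3 were higher, beside 10.8% and 14.7% of 6888 genes. Of the other 4 higher genes, Tnxb, Sparcl1 and Thbs4 had an FPKM under 1 at D0, where 40.0% of all genes were higher, and Fbln7 had 1.13.

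**Figure D2:**
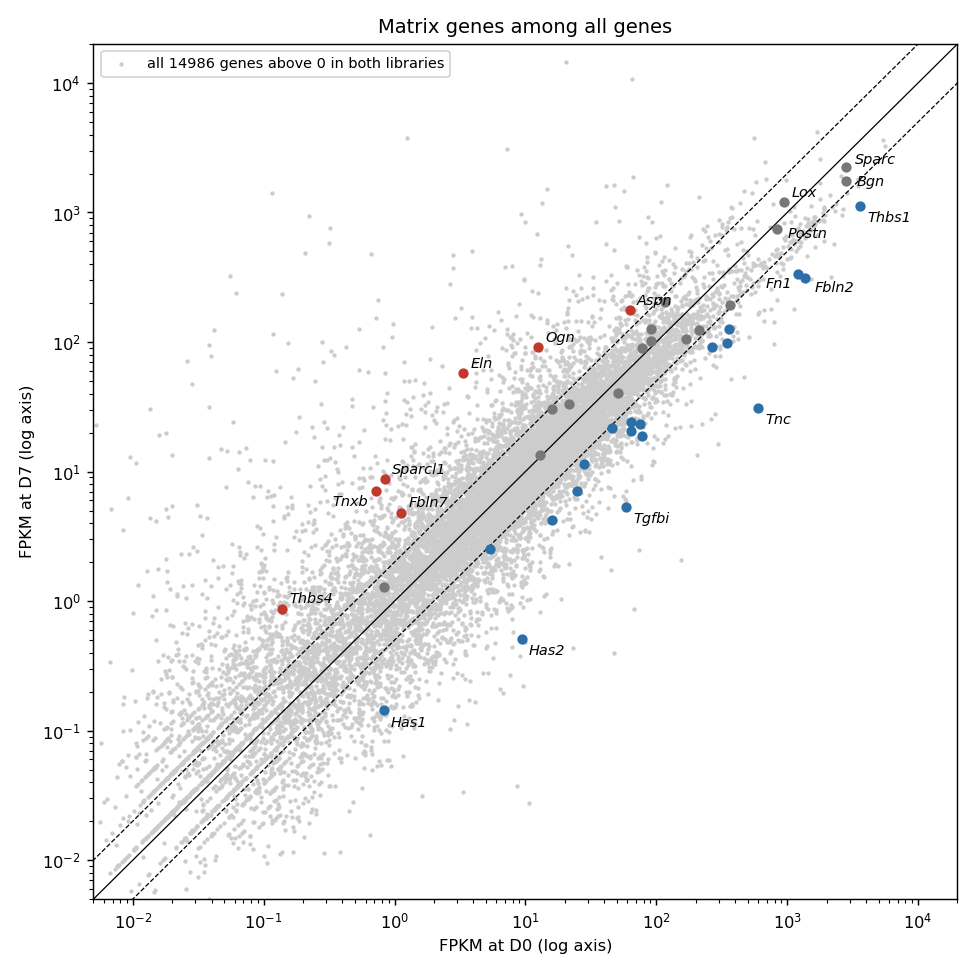
FPKM at D7 against FPKM at D0 on log axes for 14986 genes above 0 in both libraries (grey) and the 42 matrix genes (blue for lower, red for higher and dark grey for neither), with lines at equal level and at 2-fold. The blue points with the highest D0 levels (Thbs1, Fbln2, Fn1) sit at the right edge, below the lower line, and the red points sit left of an FPKM of 100 at D0.

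Promoter windows from 250 bases before to 50 after the transcript start were taken from RefSeq (GRCm38.p6), which held 34 windows for 26 of the 42 genes. The 150 bases before the start are shown for the 3 lowest and the 3 highest ratios among genes with a window and an FPKM of at least 1 in a library. They show members from both ends of the range of ratios, but Eln, Sparcl1 and Has2, which were further apart, are not among the 26 genes. The RefSeq start used lies inside the annotated gene for Fbln7 (by 951 bp), Fbln2 (309 bp) and Tgfbi (63 bp). All sequences are written 5′ to 3′ on the strand of the gene, and capitals mark letters that match a searched motif on either strand. The first 3 belong to genes lower at D7, at chr4:64047016-64047165 (minus strand), chr13:56609436-56609585 (plus) and chr6:91212614-91212763 (plus).
Tnc: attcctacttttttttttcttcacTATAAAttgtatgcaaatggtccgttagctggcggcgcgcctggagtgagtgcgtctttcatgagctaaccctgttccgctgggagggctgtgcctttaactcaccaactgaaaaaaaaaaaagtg
Tgfbi: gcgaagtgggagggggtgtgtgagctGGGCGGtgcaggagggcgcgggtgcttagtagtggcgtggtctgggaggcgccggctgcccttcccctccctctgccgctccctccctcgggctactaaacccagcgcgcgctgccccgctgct
Fbln2: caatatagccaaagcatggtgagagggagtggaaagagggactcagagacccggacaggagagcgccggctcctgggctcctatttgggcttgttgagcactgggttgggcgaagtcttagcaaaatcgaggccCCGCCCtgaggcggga

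The other 3 belong to genes higher at D7, at chr17:34670385-34670534, chr13:49607865-49608014 and chr2:128863782-128863931, each on the plus strand.
Tnxb: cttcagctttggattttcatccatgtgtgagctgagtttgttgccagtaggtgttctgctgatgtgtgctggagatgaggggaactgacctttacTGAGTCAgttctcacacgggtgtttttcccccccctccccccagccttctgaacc
Ogn: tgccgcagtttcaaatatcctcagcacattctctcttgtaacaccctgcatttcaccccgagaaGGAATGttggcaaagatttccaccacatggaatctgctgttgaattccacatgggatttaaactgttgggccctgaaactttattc
Fbln7: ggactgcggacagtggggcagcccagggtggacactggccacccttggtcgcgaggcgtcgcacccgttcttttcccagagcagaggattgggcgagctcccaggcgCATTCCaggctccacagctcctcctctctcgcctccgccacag

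Within the 150 bases shown, Tgfbi and Fbln2 carry the GC box GGGCGG, and Tnc carries TATAAA 126 bases before the start. Ogn and Fbln7 carry GGAATG, the core letters bound by TEAD factors, and Tnxb carries the AP-1 letters TGANTCA. Over its whole windows, Tnc also holds GGGCGG and Ogn also holds TATAAA. Over whole windows, GGGCGG was found in 17 of the 34 windows and in 35.7% of all 32851 windows of the table. Of the 34 windows and of all windows, respectively, TATAAA was found in 20.6% and 13.6%, GGAATG in 11.8% and 14.7%, TGANTCA in 5.88% and 7.81%, and the E-box CACGTG in 5.88% and 7.15%. The SMAD palindrome GTCTAGAC was found in none of the 34 windows and in 0.213% of all. By gene, GGGCGG was in 8 of the 12 lower genes with a window, in 5 of the 9 genes within the limits and in 1 of the 5 higher genes. TATAAA was in 3, 1 and 2 of these genes, GGAATG in 0, 1 and 3, TGANTCA in 0, 1 and 1, and CACGTG in 1, 0 and 0, in the same order. These are counts of letters in few windows, with no test, and a match does not show that a factor binds there.

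Tenascins, thrombospondins and the other matricellular proteins held both the lowest ratio and 3 of the 7 higher genes. Of these 12 genes, 6 were lower (Tnc, Tgfbi, Thbs1, Thbs2, Thbs3 and Spp1), 3 were higher (Sparcl1, Tnxb and Thbs4) and 3 were neither. The shares over all genes above 0 in both libraries were 13.2% lower and 18.5% higher. The 3 higher genes had an FPKM under 1 at D0, where 40.0% of all genes were higher. The median log2 ratio of the 12 genes was -0.92. Tnc (tenascin C, ENSMUSG00000028364.15, mm10 chr4:63959785-64047015, minus strand) is a glycoprotein of wounds and growing tissue that weakens cell attachment to fibronectin. Its FPKM was 604 at D0 against 31.0 at D7, for a ratio of 0.0513 (0.0497 to 0.0530), or 19.5-fold lower, and TATAAA is marked in its promoter as shown. Tnxb (tenascin X, ENSMUSG00000033327.16, chr17:34670535-34719815, plus strand) is the tenascin of mature loose connective tissue. Its FPKM was 0.719 at D0 against 7.06 at D7, for a ratio of 9.81 (8.25 to 11.8). Tnc thus exceeded Tnxb 839-fold at D0 and 4.39-fold at D7, in FPKM within each library. The pseudogene Cyp21a2-ps overlaps exons of Tnxb on the opposite strand, and 8030451A03Rik overlaps Tnc in the same way. In all, 19 of the 42 genes share a locus or exons with another annotated gene. The methods of the paper describe degradation of the second cDNA strand, a step that keeps strand information. How counting treated strand is not stated, so reads of such pairs may have been mixed.

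Thrombospondins bind cell surface receptors and calcium, and Thbs1 is also known to release active TGF-β from its latent form. The 3 thrombospondins with FPKM above 10 at D0 were lower by a similar factor. Thbs1 (ENSMUSG00000040152.8, chr2:118111876-118127133) had an FPKM of 3618 at D0 against 1118 at D7, for a ratio of 0.309 (0.307 to 0.311). Thbs2 had 349 and 98.6, a ratio of 0.283 (0.277 to 0.289). Thbs3 had 24.9 and 7.04, with the same ratio of 0.283 (0.253 to 0.317). Thbs4 and Comp, which are known from tendon and cartilage, were near the lower end of detection. Thbs4 had an FPKM of 0.139 from about 9 fragments at D0 against 0.870 from about 48 at D7, for a ratio of 6.28 (3.05 to 14.5), or 1.64 with a pseudocount of 1, under the limit of 2. Comp had 0.829 and 1.29, a ratio of 1.56 (1.02 to 2.41). Thbs1 made up 90.6% of the summed FPKM of these 5 genes at D0 and 91.2% at D7, while the sum was 3.26-fold lower.

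Tgfbi and Postn encode related proteins with fasciclin domains that bind integrins and collagen, and their values parted. Tgfbi (ENSMUSG00000035493.10, chr13:56609523-56639562) had an FPKM of 58.5 at D0 against 5.31 at D7, for a ratio of 0.0907 (0.0792 to 0.103). Postn (periostin) had 837 and 752, a ratio of 0.898 (0.886 to 0.910), and stayed near place 100 in the table, at 107 and 102. The level of Postn was 14.3 times that of Tgfbi at D0 and 142 times at D7.

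Sparc, a collagen-binding glycoprotein that inhibits adipogenesis in other systems, had an FPKM of 2802 at D0 against 2239 at D7. Its ratio was 0.799 (0.792 to 0.806), above the limit of 0.5, and it was the highest of the 42 genes at D7. Sparcl1 (hevin, ENSMUSG00000029309.7, chr5:104079111-104113733), its closest relative, had an FPKM of 0.840 at D0 against 8.71 at D7, for a ratio of 10.4 (7.58 to 14.2). Sparcl1 is known from endothelial cells and neural tissue. Of 10 endothelial markers, 2 were lower, 2 were higher and 3 were listed at 0 in a library, with Cldn5 and Tie1 at 0 in both, and their summed FPKM was 5.45 at D0, led by Egfl7, against 4.27 at D7, led by Tek. Spp1 (osteopontin), a phosphoprotein made by bone cells and by macrophages, had an FPKM of 357 at D0 against 126 at D7, for a ratio of 0.352 (0.338 to 0.366). Of 13 macrophage markers with values, 12 were higher at D7 and none was lower, and their summed FPKM was 162 at D0 against 619 at D7, led at both by Lyz2 and opposite in direction to Spp1. The part of macrophages in the level of Spp1 was not tested.

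Fibronectin, which forms early fibrils that collagens and fibulins attach to, was among the strongly expressed genes that were lower. Fn1 (ENSMUSG00000026193.15, chr1:71585520-71653200) had an FPKM of 1210.4 at D0 against 337 at D7, for a ratio of 0.279 (0.276 to 0.281). The level of Fn1 was 1.27 times that of Lox at D0, while at D7 Lox was 3.57 times as high as Fn1. Matn2 (matrilin 2), an adaptor protein of matrix filaments, had an FPKM of 15.9 at D0 against 30.6 at D7. Its ratio of 1.92 (1.79 to 2.07) fell just short of 2, and its interval holds 2.

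**Figure D3:**
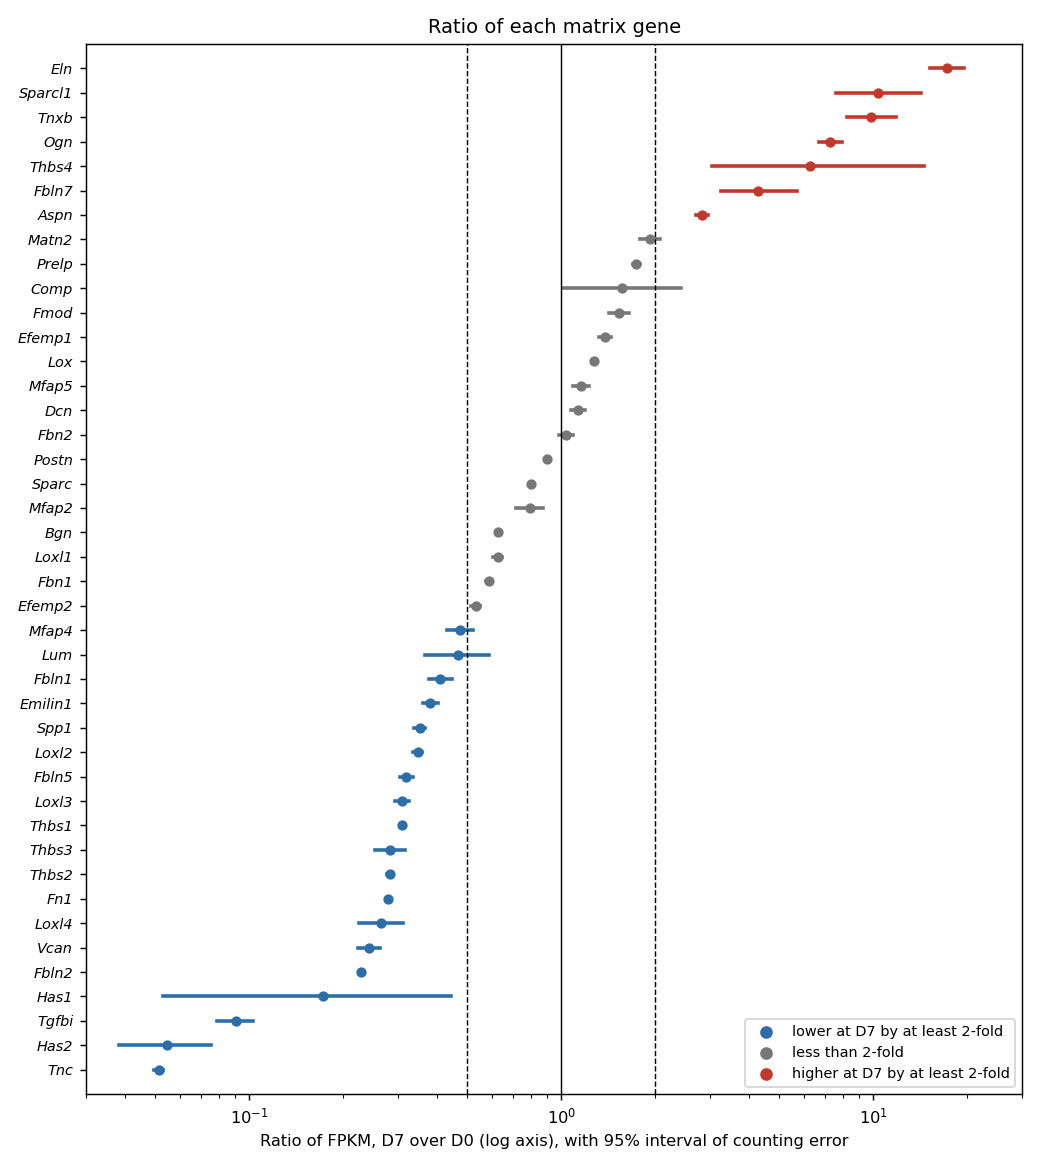
Ratio of FPKM at D7 to D0 for each of the 42 genes on a log axis, with its 95% interval of counting error as a bar (hidden by the point where it is narrower). The dashed lines mark 0.5 and 2, with 19 genes to the left and 7 to the right, and the widest bars belong to Has1 and Thbs4, which rest on the fewest fragments.

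Genes of the elastic fibre, in which an elastin core lies in a sheath of fibrillin microfibrils, were more often lower than higher, while elastin itself had the highest ratio. Of the 13 genes, 5 were lower (Fbln2, Fbln5, Emilin1, Fbln1 and Mfap4), 2 were higher (Eln and Fbln7) and 6 were neither. Over all genes above 0 in both libraries, 13.2% were lower and 18.5% were higher. The median log2 ratio of the 13 genes was -0.77. Eln (elastin, ENSMUSG00000029675.12, chr5:134702593-134747323, minus strand) had an FPKM of 3.34 from about 263 fragments at D0 against 57.2 from about 3836 at D7. Its ratio of 17.2 (15.1 to 19.5) stands for the largest difference in that direction among the 42 genes. The annotated gene Gm30003 overlaps exons of Eln on the opposite strand. Fbln5, which loads elastin onto microfibrils, went the other way, with an FPKM of 64.1 at D0 against 20.4 at D7 and a ratio of 0.319 (0.304 to 0.334). The level of Fbln5 was 19.2 times that of Eln at D0, and Eln was 2.80 times as high as Fbln5 at D7.

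Fibulins are glycoproteins that link elastin, fibrillin and basement membranes. Fbln2 (ENSMUSG00000064080.12, chr6:91212455-91272540) was the 55th highest row at D0, with an FPKM of 1376, and had 313 at D7, a ratio of 0.228 (0.225 to 0.231). Fbln1 had an FPKM of 28.0 at D0 against 11.5 at D7, for a ratio of 0.410 (0.377 to 0.446). Efemp2 (fibulin 4), needed for elastin crosslinking, had 364 and 193, with a ratio of 0.532 (0.514 to 0.550), above the limit of 0.5. When values were floored at 0.01 and each library was divided by its median, this ratio became 0.416. Efemp1 (fibulin 3) stayed within the limits, with an FPKM of 90.9 at D0 against 125 at D7 and a ratio of 1.38 (1.32 to 1.44). Fbln7 (ENSMUSG00000027386.9, chr2:128862981-128897034) had 1.13 and 4.82, a ratio of 4.28 (3.25 to 5.71). Fbln2 held 71.5% of the summed FPKM of the 6 fibulins at D0 and 46.9% at D7, while Efemp1 held 4.73% and 18.7%.

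Of the microfibril genes, the fibrillins and Mfap2 and Mfap5 stayed within the limits, and Mfap4 and Emilin1 were lower. Fbn1 (fibrillin 1), the main microfibril protein, had an FPKM of 211 at D0 against 124 at D7, for a ratio of 0.585 (0.576 to 0.595). Fbn2, the fibrillin of developing tissue, had 13.0 and 13.5, and its ratio of 1.04 (0.984 to 1.09) was the only one of the 42 whose interval held 1. The microfibril-associated glycoproteins Mfap2 and Mfap5 had ratios of 0.793 (0.718 to 0.876) and 1.16 (1.09 to 1.23). Under the same scaling by library medians, the ratios of Fbn2 and Mfap5 turned below 1 and that of Fbn1 below 0.5. Mfap4, a fibrinogen-related protein of elastic fibres, had an FPKM of 45.9 at D0 against 21.8 at D7, for a ratio of 0.475 whose interval from 0.431 to 0.522 holds 0.5. Emilin1, a glycoprotein at the border of elastin and microfibrils, had 64.0 and 24.3, a ratio of 0.381 (0.360 to 0.402).

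Lysyl oxidases are copper enzymes that oxidize lysines of collagen and elastin so that crosslinks form. Lox and Loxl1 stayed within the limits, and Loxl2, Loxl3 and Loxl4 were lower. Lox (ENSMUSG00000024529.14, chr18:52516067-52529867) had an FPKM of 950.0 at D0 against 1206 at D7, for a ratio of 1.27 (1.26 to 1.28), which turned below 1 when each library was divided by its median. Loxl1, which is directed to elastin, had 169 and 105, a ratio of 0.625 (0.606 to 0.645), which became 0.490 under that scaling. The other relatives form a subgroup with scavenger receptor domains. Loxl2 had 265 and 91.9, a ratio of 0.347 (0.336 to 0.358). Loxl3 had 75.6 and 23.4, a ratio of 0.309 (0.293 to 0.326), and Loxl4 had 15.8 and 4.19, a ratio of 0.265 (0.224 to 0.310). Loxl3 shares its deposited locus with Htra2 on the opposite strand. The summed FPKM of the 5 enzymes was nearly level, at 1475 and 1431, but Lox held 64.4% of it at D0 and 84.3% at D7. Loxl2 held about 18% and 6.42%. These shares do not depend on the scaling between the libraries.

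**Figure D4:**
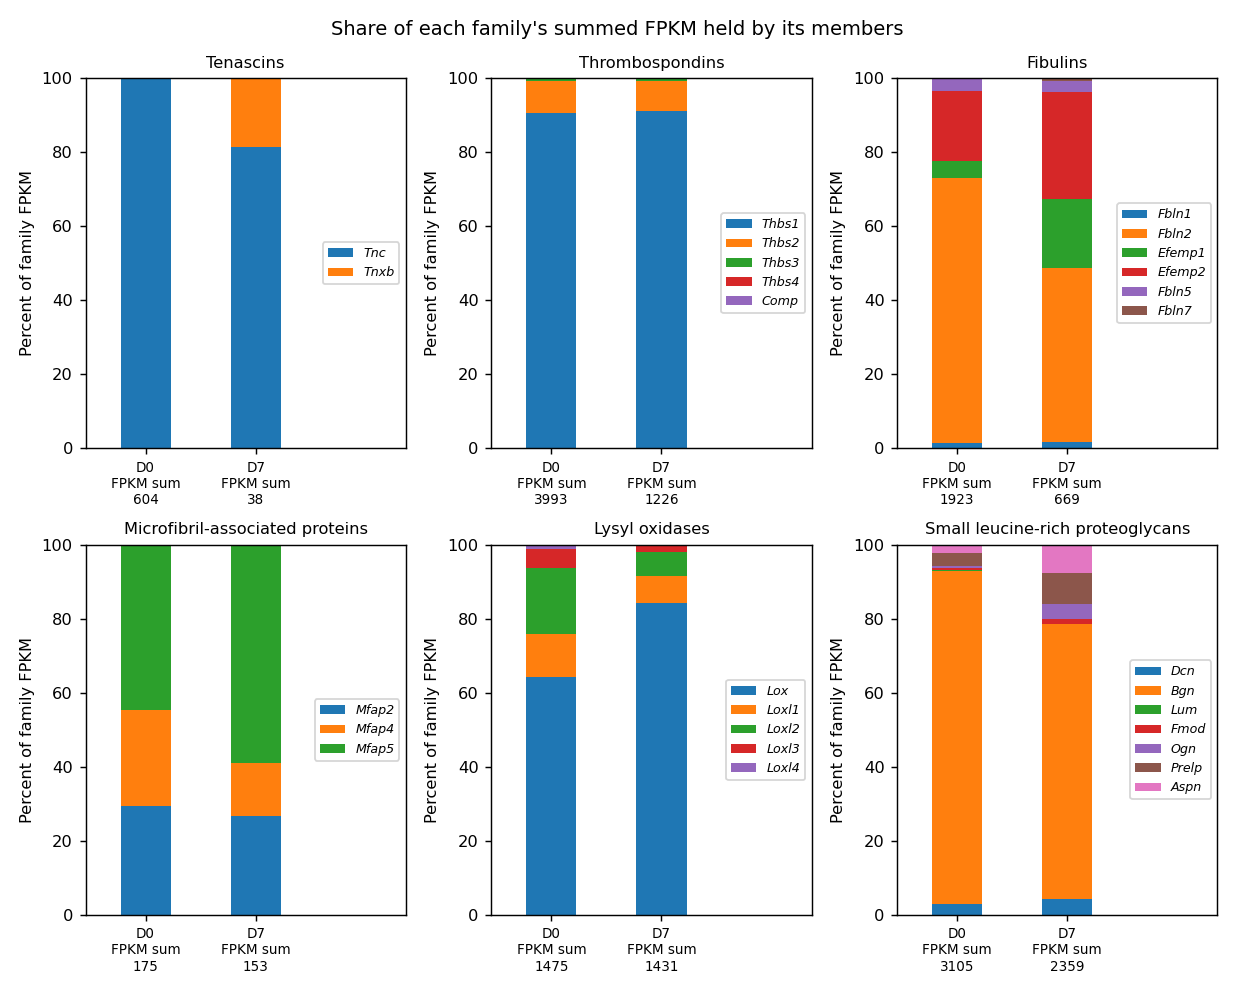
Share of the summed FPKM of a family held by each member, at D0 and D7, for the members of 6 families among the 42 genes, with the family's summed FPKM under each bar. Lox grows from 64.4% to 84.3% of the lysyl oxidases and Bgn shrinks from 90.1% to 74.3% of the small leucine-rich proteoglycans, while Thbs1 stays near 91% of the thrombospondins.

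Small leucine-rich proteoglycans, which bind collagen fibrils and set their diameter, formed the only role group with a median log2 ratio above 0, at 0.61. Of these 7 genes, 2 were higher (Ogn and Aspn), 1 was lower (Lum) and 4 were neither. Over all genes above 0 in both libraries, 18.5% were higher and 13.2% were lower. Of the 7 ratios, 5 were above 1, and that of Dcn turned below 1 when each library was divided by its median. The summed FPKM of the 7 genes was nevertheless lower at D7, with 3105 at D0 against 2359 at D7. Ogn (osteoglycin or mimecan, ENSMUSG00000021390.6, chr13:49608046-49624501, plus strand) had an FPKM of 12.5 at D0 against 91.0 at D7, for a ratio of 7.28 (6.69 to 7.92). Its window with GGAATG is printed with the promoters. Aspn (asporin, ENSMUSG00000021388.14, chr13:49544443-49567565, plus strand), which binds TGF-β, had 62.7 and 177, a ratio of 2.82 (2.70 to 2.94). Prelp, which anchors basement membranes, had 116 and 202, a ratio of 1.74 (1.69 to 1.79). Fmod (fibromodulin) had 21.6 and 33.0, a ratio of 1.53 (1.42 to 1.64).

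Bgn (biglycan), by far the most abundant of the 7 per length, had an FPKM of 2797 at D0 against 1751 at D7, for a ratio of 0.626 (0.621 to 0.632), which became 0.491 when each library was divided by its median. Dcn (decorin), its close relative, had 90.6 and 102, a ratio of 1.13 (1.07 to 1.19), so that Bgn exceeded Dcn 30.9-fold at D0 and 17.1-fold at D7. Lum (lumican) was the least abundant, with 5.40 and 2.52 and a ratio of 0.466, and its interval from 0.367 to 0.586 holds 0.5. With a pseudocount of 1 the ratio of Lum was 0.549, above the limit of 0.5. Bgn held 90.1% of the summed FPKM of the 7 genes at D0 and 74.3% at D7.

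Many of these proteoglycan genes lie side by side in the genome, and their neighbours were read within 200 kb. Ogn and Aspn lie 40481 bp apart on chromosome 13, with Omd (osteomodulin) between them and Ecm2 next to Aspn. Omd had an FPKM of 0.800 at D0 against 4.43 at D7, for a ratio of 5.54, and Ecm2 had 1.08 and 2.04, a ratio of 1.89. Of these 4 genes, Ogn, Aspn and Omd were thus higher, while Ecm2 stayed within the limits. The deposited locus of all 4 is the same stretch, which also holds Cenpp, a centromere gene that spans them on the opposite strand and had a ratio of 0.191. Outside this stretch, the nearest flanking genes Nol8 and Ippk had ratios of 1.39 and 1.20. Further out, Iars was lower, with a ratio of 0.473, and Bicd2 had a ratio of 0.810. On chromosome 10, Dcn and Lum lie 46985 bp apart, with Dcn within the limits and Lum lower, and their neighbour Kera was listed at 0 in both libraries. On chromosome 1, Prelp lies 2305 bp from Optc (opticin), which had an FPKM of 1.73 at D0 against 0.561 at D7, for a ratio of 0.325. Fmod lies 115840 bp from Prelp, and both stayed within the limits, with ratios of 1.53 and 1.74.

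Versican and hyaluronan, which is made by the synthases, form a soft matrix around migrating and dividing cells. Vcan, Has1 and Has2 were lower, although Has1 lost this call with a pseudocount of 1, where its ratio was 0.626. Vcan, a large proteoglycan that binds hyaluronan, had an FPKM of 78.3 at D0 against 18.9 at D7, for a ratio of 0.242 (0.223 to 0.262). Has2 (ENSMUSG00000022367.7, chr15:56665627-56694539, minus strand), the main synthase of mesenchymal cells, had 9.38 from about 818 fragments and 0.512 from about 38, a ratio of 0.0546 (0.0384 to 0.0757). Its antisense transcript overlaps it and shares its deposited locus. Has1 had 0.828 from about 34 fragments and 0.143 from about 5, a ratio of 0.173 (0.0529 to 0.445). Has3, a synthase that is not among the 42 genes, was higher, with 0.0812 and 0.353, a ratio of 4.35. The summed FPKM of the 3 synthases was 10.2-fold lower at D7, and Has2 held 91.2% of it at D0 and 50.8% at D7. Cd44, the main cell surface receptor of hyaluronan, had an FPKM of 116 at D0 against 17.7 at D7.

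Other genes of the same matrix pathways, 103 in 7 lists and none of them among the 42, gave a weaker lean to lower values. Of 90 above 0 in both libraries, 27 were lower and 17 were higher, with a median log2 ratio of -0.21. Among all genes above 0 in both libraries, 13.2% were lower and 18.5% were higher, so the share of higher genes was near that of all genes. Each list holds few genes, and its counts are to be read beside the same percentages. The list of other matricellular genes had 9 lower and 3 higher genes (Mgp, Smoc1 and Spock2) of 19, with a median log2 ratio of -0.19. The lower genes Matn3, Spock3, Tnn and Vtn had an FPKM under 1 in both libraries. Among genes of this list with an FPKM of at least 1 in a library, Wisp1, a secreted protein of the CCN family, had the lowest ratio. Its FPKM was 76.3 at D0 against 9.16 at D7. The highest ratio was that of Smoc1, a relative of Sparc, with 0.878 and 40.7, a ratio of 46.4. Other elastic fibre genes had 2 lower genes (Ltbp1 and Ltbp2) and 3 higher genes (Adamtsl2, Adamtsl4 and Emilin3) of 11, with a median log2 ratio of 0.02. Their lowest ratio was that of Ltbp2, at 0.383, and their highest that of Adamtsl4, at 5.57. Emilin3 had an FPKM under 1 in both libraries. Other leucine-rich proteoglycans had 1 lower gene, Optc, and 2 higher genes (Omd and Chad) of 8, with a median of 0.13. Chad had an FPKM under 1 in both libraries. Other crosslinking enzymes had 2 lower (Tgm1 and Tll1) and 3 higher genes (Tgm2, Tgm3 and Tgm5) of 12. Only these 3 of the 12 ratios were above 1, and the median log2 ratio was -0.65. Tgm1, Tgm3 and Tgm5 had an FPKM under 1 in both libraries. Among the enzymes with an FPKM of at least 1, the lowest ratio was that of Tll1, a protease that processes procollagen and lysyl oxidases, at 0.114. The highest was that of Tgm2 (transglutaminase 2), at 2.44.

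**Figure D5:**
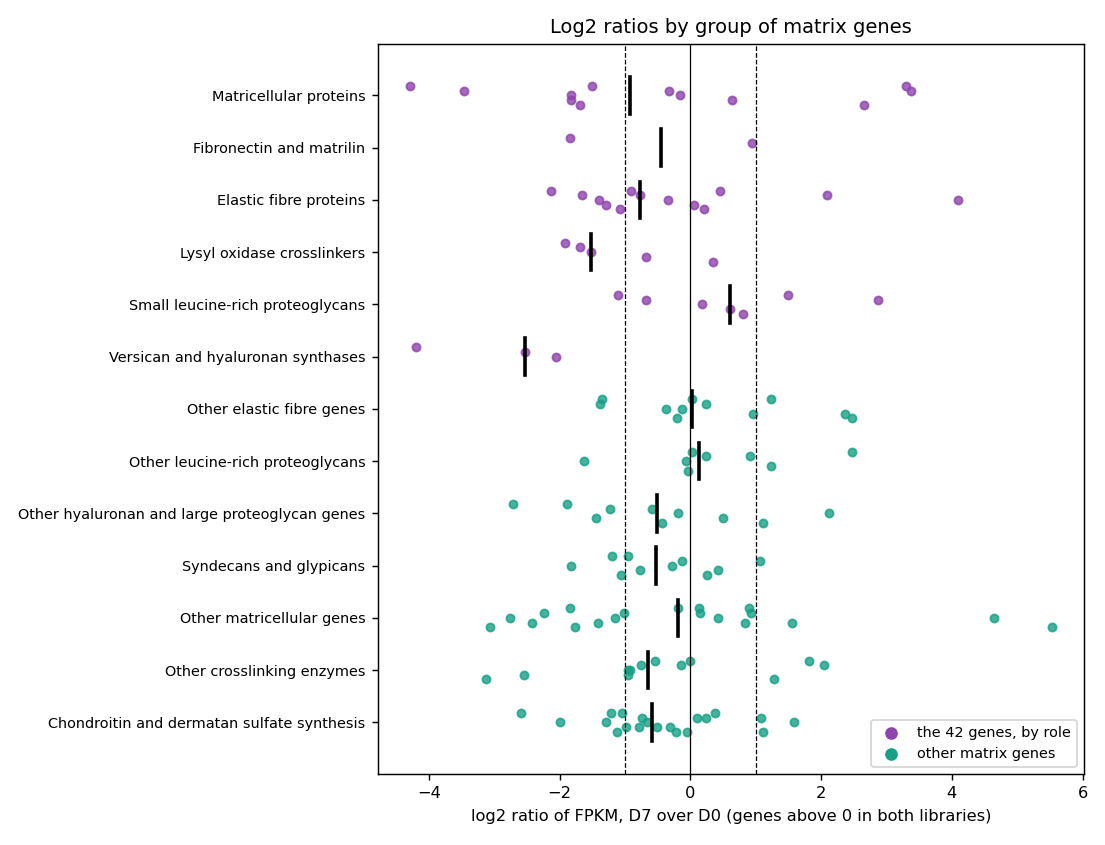
Log2 ratio of FPKM, D7 over D0, for each of the 42 genes by role (purple) and for the other matrix genes by list (green), over genes above 0 in both libraries. Black bars are medians and dashed lines mark 2-fold, and the purple medians run from -2.53 for Vcan, Has1 and Has2 to 0.61 for the small leucine-rich proteoglycans.

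Marker lists of mural, fibroblast, cartilage and tendon, and mesothelial cells also differed between the libraries. Preadipocytes are themselves fibroblast-like, so the fibroblast list need not mark another cell type, and no list alone shows that its cells were present. Among all genes above 0 in both libraries, 13.2% were lower and 18.5% were higher. Of 10 markers of mural and smooth muscle cells, 5 were lower at D7 and 2 were higher (Rgs5 and Kcnj8). The summed FPKM of these 10 markers was 4129 at D0 against 725 at D7, led at both stages by Acta2, with 2164 and 319. Of 10 fibroblast markers, 5 were lower and 2 were higher, with sums of 6306 and 2724, led by Col1a1 at D0 and Col3a1 at D7. Of 10 cartilage and tendon markers, which bear on Comp, Thbs4 and Fmod, 6 were lower, none was higher and 3 were listed at 0 in a library. Their sums were 229 and 52.3, led by Tnmd at D0 and Col11a1 at D7, and the cartilage proteoglycan Acan was listed at 0 in both libraries. Of 8 mesothelial markers, 2 were lower, 1 (Wt1) was higher and 4 were listed at 0 in a library. Their sums were 6.73 and 2.34, of which Krt19, the only one with an FPKM of at least 1, held 6.31 and 1.88. The part of these cell types in the levels of the matrix genes was not tested.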

How the data were processed

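RNA-Seq values of 2 libraries, brown preadipocytes (D0) and adipocytes (D7), were used. The authors used SOAP2 to place filtered reads on the mm10 genome and on gene sequences, and a single FPKM was deposited for each gene in each library; the submitters' processing notes name Bowtie2. The methods name GeneSpring 7.3 for FPKM values and changed genes. The second cDNA strand was degraded during library preparation, but whether counting used strand is not given in the sources used here.

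Ratios of D7 to D0 were computed from the deposited FPKM values without pseudocount or rescaling, and the 2-fold threshold follows the methods of the paper. Numbers of fragments were worked out from 590 single-exon genes of at least 600 bp. After 179 bp (D0) and 182 bp (D7) were taken from each length, 100% of 76 and 86 low values (at most 20 fragments) came out whole to within 0.1. Lengths of the 42 genes are those of the named RefSeq transcript for 41 of them in GENCODE M21, so their numbers of fragments are approximate. The scripts were tested on simulated data. All 42 genes are named; of the other matrix lists, the genes with the highest and lowest ratio at an FPKM of at least 1 are, and those past 2-fold where 5 or fewer; of marker lists, the gene with the highest FPKM at each stage is. The genes, families and lists were chosen with earlier results of these data known, and pairs and neighbouring genes after their values were seen. Alternatives were 2 pseudocounts, 4 scalings, 2 filters on low values, summed rows and 2 other thresholds. A planned comparison of protein sequences was not run. Scripts ran in Python 3.11.15 with scipy 1.17.1, pandas 2.3.3 and numpy 2.4.6, and figures were drawn with matplotlib 3.10.9.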

Additional observations from a re-analysis of the deposited data

How the results depend on the processing

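The count of 19 lower genes ranged from 17 to 23 over the pseudocounts, scalings, filters and the 1.5-fold threshold, and was 6 at 4-fold. The count of 7 higher genes was 6 or 7 over the same settings except the 1.5-fold threshold, where it was 11. Has1, Lum and Thbs4 no longer reached 2-fold with a pseudocount of 1. With a floor of 0.01 and division of each library by its median, which shifts every log2 ratio by -0.35, Bgn, Efemp2, Fbn1 and Loxl1 became lower by at least 2-fold, and the ratios of Dcn, Fbn2, Lox and Mfap5 turned from above to below 1. Under that scaling the median log2 ratio was -1.08 for the 42 genes, -1.27 for matricellular genes, -0.80 for fibronectin and matrilin, -1.13 for elastic fibre genes, -1.88 for lysyl oxidases and 0.26 for small leucine-rich proteoglycans. The median of the 42 genes was -0.68 with a pseudocount of 1 and -0.77 with upper quartile scaling. The share of summed FPKM was 4.60% at D0 and 2.46% at D7 without the other rows among the 100 with the highest mean, and 4.05% and 2.03% without mitochondrially encoded and ribosomal protein genes. In alternatives chosen after seeing the data, the 23 genes that share no locus or exon with another gene held 10 lower and 3 higher genes (median -0.68). The 36 genes with at least 100 fragments in both libraries held 17 lower and 4 higher genes (median -0.84). No called gene reversed its direction under any of these settings. No paired analysis was possible because each stage had 1 library, and no library could be left out. Below about 100 fragments, as in Has1, Thbs4, Comp, Sparcl1, Fbln7 and Has2, counting error alone is wide.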

Other observations

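Enzymes that build the chondroitin and dermatan sulfate chains of proteoglycans such as Vcan, Bgn and Dcn were also read. Of 20 genes, 6 were lower, 3 were higher (Chst13, Chst15 and Ust) and 11 were neither, beside 13.2% lower and 18.5% higher among all genes. The median log2 ratio of the 20 genes was -0.58. Among those with an FPKM of at least 1 in a library, the lowest ratio was that of Xylt1, which starts the chain on the core protein, with an FPKM of 2.87 at D0 against 0.474 at D7, for a ratio of 0.165. The highest was that of Ust, a sulfotransferase, with 4.48 and 13.4, a ratio of 3.0. Chst13 had an FPKM under 1 in both libraries. Among 10 syndecans and glypicans, which carry heparan sulfate at the cell surface, 3 were lower (Gpc1, Gpc2 and Sdc3) and 1 was higher (Gpc3). Sdc3 had an FPKM of 91.3 at D0 against 25.7 at D7, and Gpc3 had 13.2 and 27.5. Among 10 other hyaluronan and large proteoglycan genes above 0 in both libraries, 4 were lower (Bcan, Cd44, Cspg4 and Hapln4) and 2 were higher (Has3 and Srgn). Cd44 had the lowest ratio, 0.152. Srgn, the proteoglycan of secretory granules, had the highest of those with an FPKM of at least 1. Bcan and Has3 had an FPKM under 1 in both libraries. The summed FPKM of all 102 other matrix genes with values was 5157 at D0 and 3854 at D7.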
